A study of Mus musculus with 8 samples.

Results

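The genes described here are 10 genes reported earlier as targets of the microRNA family of the miR-290-295 cluster in mouse embryonic stem cells: Lats2, Casp2, Ei24, Tgfbr2, Rhoc, Akt1, Irf2, Arid4b, Wee1 and Btg2. They were taken from a list of earlier reports and matched by symbol to 10 of the 55421 gene identifiers measured. All 4 groups are cells of the E14 line, of 129/Ola background, kept in serum with LIF on gelatin, and each group has 2 biological duplicates. Wild-type cells (WT) and cells with a knockout of the cluster (KO) were left untreated and were prepared and sequenced together. The titles of these libraries do not all carry the same suffix, and the meaning of the suffixes is not given. A separate set holds KO cells harvested 36 hours after transfection with 5 nM of an siPOOL, a pool of many small interfering RNAs, either against the transcription factor gene Tfap4 (siTfap4) or as a negative control (siNeg). Both siPOOL groups therefore lack the cluster, and no group has it restored. Whether the KO libraries come from 1 clone or from several is not given in the sources used here.

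MicroRNAs guide Argonaute proteins to messenger RNAs, mostly through pairing between the seed near their 5′ end and a matching word in the 3′ UTR. Pairing of this kind shortens the life of the transcript or lowers its translation. The cluster supplies the most abundant microRNAs of mouse embryonic stem cells, which are known for speeding the step from G1 to S phase and for protecting the cells from death. A test of RNA level sees the loss of transcript but not a change in translation alone.

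The seed sequences are shown first, since each site below is defined by them. Mature sequences are from RefSeq (GRCm38.p6) and lie on the plus strand of chromosome 7, with bases 2 to 8, the seed, in capitals. The seed AAGUGCU is shared by these 3:
miR-291a-3p: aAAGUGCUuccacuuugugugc
miR-294-3p: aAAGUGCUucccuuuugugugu
miR-295-3p: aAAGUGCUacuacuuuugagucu
Others of the cluster differ from it at the last seed base or are shifted:
miR-290a-3p: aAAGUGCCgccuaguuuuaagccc
miR-291b-3p: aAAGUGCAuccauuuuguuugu
miR-293-3p: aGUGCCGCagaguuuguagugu

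The longest annotated 3′ UTR of 9 of the 10 genes holds AGCACTT, the 7-base complement of the AAGUGCU seed, and Btg2 holds neither this word nor the weaker GCACTTA. Only the transcript strand was searched, and a 6-base core GCACTT that belongs to a longer word was counted once, under the longer word. The 9 genes hold 12 copies of AGCACTT in all, and 3 of these, in Lats2, Tgfbr2 and Irf2, are followed by A and so form the 8-base word AGCACTTA. Among the 12772 tested genes with an annotated 3′ UTR, 17.4% hold AGCACTT and 3.48% hold AGCACTTA. The genes were chosen as reported targets, and reports of targets often start from seed words, so this share is a description. UTR length bears on it: AGCACTT is present in 60.3% of tested genes whose UTR is within 20% of the 6085 bases of Tgfbr2, but in 4.31% of those near the 416 bases of Rhoc. At 2199 bases the UTR of Btg2 is the second longest of the 10, and 25.5% of genes of that length hold the word.

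The windows below are a selection: the 3 sites with the 8-base word, the one AGCACTT site each of Ei24, Rhoc and Akt1, which were called in a comparison, and the last AGCACTT site of Tgfbr2, in the sense of the transcript, with the seed match in capitals (GRCm38, all within the 3′ UTR):
Lats2, chr14:57691082-57691105, minus strand: cagtatggaaagAGCACTTAtttt
Tgfbr2, chr9:116087767-116087790, minus strand: atcaaaacctaaAGCACTTAtttt
Irf2, chr8:46846652-46846675, plus strand: accttatcttgaAGCACTTAcaat
Ei24, chr9:36779884-36779907, minus strand: agctgtttttttAGCACTTgccag
Rhoc, chr3:104794319-104794342, plus strand: atattacacaccAGCACTTtatat
Akt1, chr12:112653991-112654014, minus strand: agcccttctcctAGCACTTgtcct
Tgfbr2, chr9:116085351-116085374, minus strand: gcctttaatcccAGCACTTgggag
The last window stands apart from the others. Its 24 bases occur letter for letter in the longest 3′ UTR of 107 other genes, whereas the windows of all 20 other seed matches in these genes, 6-base cores included, occur in no other gene's. Not every annotated 3′ UTR of these genes holds the window. The Lats2 window lies in 1 of 4, that of Rhoc in 2 of 4 and that of Ei24 in 2 of 2. The 8-base window of Tgfbr2 and those of Irf2 and Akt1 lie in 1 of 2 each. Which UTRs these cells use was not tested. The sites lie at different depths of the longest UTR. In Arid4b, the first core begins 18 bases after the stop codon and another follows at 25 bases. In Ei24 and Rhoc the core begins at 213 and 289 bases, and in Tgfbr2 the 8-base word has its core at 2601 bases.

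**Figure D1:**
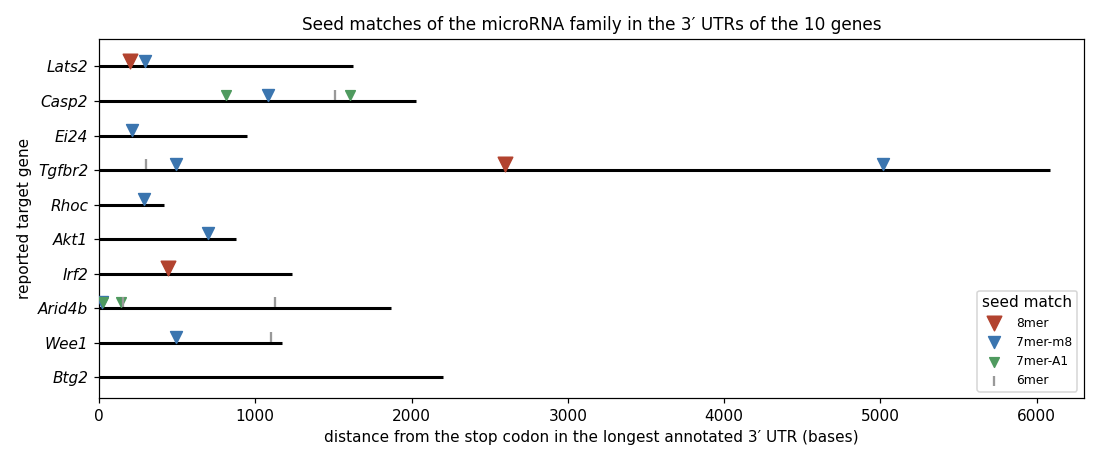
Seed matches in the 10 genes, along the longest 3′ UTR annotated for each, by distance from the stop codon in bases. Red marks the 8-base word (Lats2, Tgfbr2, Irf2), blue the 7-base match to seed bases 2 to 8, green the 7-base word with a final A and grey the 6-base core. All classes refer to the seed AAGUGCU, and the differing last seed base of miR-290a-3p and miR-291b-3p was not used to class sites. Btg2 carries no mark.

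Library totals lay between 8326675 and 12726123 counts, and duplicates differed by more than counting error in every group (chi-square per degree of freedom from 11.9 to 39.5). The 7 entries of the cluster held 88 and 39 counts in WT and 0 in all 6 libraries of KO cells. Tfap4 gave 18.02 ± 2.32 CPM in WT and 45.5 ± 4.91 CPM in KO libraries, and 14.1 ± 2.44 CPM in siTfap4 and 35.9 ± 2.06 CPM in siNeg (SD, n = 2). The summed level of 8 embryonic stem cell markers ran from 3246 to 3492 CPM over WT, KO and siNeg libraries and was 2366 and 2505 CPM in siTfap4. Its members moved apart between siNeg and siTfap4: Dppa5a fell from 440.0 to 6.57 CPM and Nanog from 364 to 129 CPM, Pou5f1 rose from 26.4 to 53.7 CPM, and the other 5 did not pass the test. Means of the markers also went both ways between WT and KO. Utf1 averaged 583.7 CPM in WT and 309.3 CPM in KO, Sox2 694.0 and 935.5 CPM, and Nanog 429.2 and 529.8 CPM. The sum of 7 extraembryonic endoderm markers was 54.6 and 66.6 CPM in WT against 6.25 to 10.4 CPM in the other groups. Of 7 fibroblast or feeder markers, Col3a1 and Postn were at 0 in every library, and the sum ran from 30.9 to 54.6 CPM in WT and from 7.67 to 22.4 CPM elsewhere. Most of this sum was 1 gene, Thy1, at 26.5 and 48.3 CPM in WT and 6.72 to 19.7 CPM elsewhere. The sum of 4 neural markers ran from 32.75 to 51.3 CPM in WT and from 62.8 to 96.1 CPM elsewhere, and that of 5 trophectoderm markers from 10.65 to 23.7 CPM in WT and from 14.7 to 22.55 CPM elsewhere. Of the neural markers, Tubb3 had the highest level, at 23.65 and 38.1 CPM in WT and 30.8 to 61.85 CPM elsewhere. Its lowest value elsewhere, in KO replicate 2, lay between the WT values. Group means in WT, KO, siNeg and siTfap4 were 0.45, 15.7, 16.8 and 7.89 CPM for Pax6. They were 7.43, 8.21, 3.57 and 2.65 CPM for Sox1 and 3.26, 5.22, 8.42 and 17.3 CPM for Nes. The part of all these markers in the results below was not tested, and in bulk RNA fewer cells of a type cannot be told apart from less RNA per cell. The trend of levels with base composition also differed in the siTfap4 libraries. Log2 levels were taken here relative to each gene's mean over the 8 libraries. Per 10 percentage points of GC in the last 100 bases of a gene, these relative levels changed by 0.32 and 0.22 in the siTfap4 libraries. The values were -0.14 and 0.05 in siNeg and -0.13 to -0.08 in the 4 untreated libraries. Because they are relative, a higher value in some libraries lowers those of the others.

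Levels are given as CPM, the count of a gene scaled to the total of its library with TMM factors. Differences are log2 fold changes from edgeR's quasi-likelihood test, fitted to all 8 libraries, with p-values adjusted over the 15137 genes tested and a threshold of 0.05. All 10 genes passed the filter on low counts, Irf2 through its values in KO and siPOOL libraries, since WT held 1 and 2 counts.

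Ei24 RNA was higher and Btg2 RNA lower in KO than in WT cells, and Irf2, almost undetected in WT, is given by its counts only. Irf2 reached the test through groups where it is high, so the counts and medians here are over the other 9 genes. The genes were chosen with earlier results of these data known, so their shares beside those of all tested genes are a description. Of these 9, 1 rose and 1 fell in KO against WT cells, where 9.95% of all tested genes were called, 5.99% as higher and 3.96% as lower. At an unadjusted p under 0.05 there were 5 of the 9, beside 23.3% of all tested genes. Groups did not overlap for 4 genes that were higher and 2 that were lower in KO cells, beside 28.9% and 28.6% of all tested genes. The median log2 fold change of the 9 was 0.23, against -0.01 over all tested genes, and 6 of the 9 values were positive. The 8 of them with AGCACTT had a median of 0.45 with 6 of 8 positive, and the 2 below 0 were Rhoc and Wee1. For comparison, the 2226 tested genes with this word had a median of 0.10 and 8.45% of them rose, while the 10546 without it had a median of -0.02 and 5.98% of them rose.

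Caspase-2, the product of Casp2, is an initiator protease of apoptosis, and Ei24 encodes a membrane protein of the endoplasmic reticulum that p53 induces. Ei24 gave 54.8 and 42.4 CPM in the WT libraries and 79.0 and 93.5 CPM in the KO libraries, 1.77-fold higher (log2 fold change 0.83, SE 0.25, adjusted p = 0.0422). Both KO libraries lay above both WT libraries. The call is close to the threshold. Its adjusted p was 0.0741 with WT replicate 1 left out, 0.274 with WT replicate 2 left out, 0.125 with KO replicate 1 left out and 0.3015 with KO replicate 2 left out. A correction for base composition alone gave 0.0505, and the replicate number as a block 0.0523. Casp2 stood at 19.4 and 12.7 CPM in WT and at 28.3 and 28.2 CPM in KO cells. These groups did not overlap either, and the log2 fold change of 0.81 (SE 0.27) had an adjusted p of 0.0737 and a 95% interval of 0.23 to 1.39. Of all tested genes, 57.5% had groups that did not overlap.

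Irf2, which encodes a repressor and activator of interferon-responsive promoters, was barely detected in WT cells. It held 1 and 2 counts in WT and 7 and 26 counts in KO libraries. Over both libraries of a group, scaled for depth, this is a ratio of 9.87 with an exact Poisson interval of 3.10 to 50.3, which covers counting error only. The fitted log2 fold change of 3.20 (SE 0.95) depends on the prior count. Its adjusted p of 0.0407 is not counted as a rise, since the gene passed the filter only through libraries without the cluster and dropped out with a filter of 1 CPM or in a fit to the 4 untreated libraries. The 2 KO libraries differed by more than the lower of them differed from WT. Leaving out KO replicate 2 gave an adjusted p of 0.511 (log2 1.93), leaving out WT replicate 1 gave 0.245 (2.70) and leaving out WT replicate 2 gave 0.133 (3.84). DESeq2 gave an adjusted p of 0.0847 and limma-voom 0.104.

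Btg2, an antiproliferative gene whose product recruits the CCR4-NOT deadenylase, fell in KO cells. Its level was 61.8 and 48.1 CPM in WT libraries against 22.2 and 25.2 CPM in KO libraries, 2.32-fold lower (log2 fold change -1.22, SE 0.25, adjusted p = 0.00589). Both siPOOL groups, which also lack the cluster, were also low, with 22.9 and 22.4 CPM in siNeg and 21.8 and 18.4 CPM in siTfap4. All 6 libraries of KO cells were thus below both WT libraries. Leaving out WT replicate 1 gave an adjusted p of 0.0653, leaving out KO replicate 1 gave 0.0990 and leaving out KO replicate 2 gave 0.0508. This is also the gene of the 10 with no seed word in its 3′ UTR.

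Among the signalling genes, Tgfbr2, the type II receptor for TGF-beta ligands, held 16 and 24 counts in WT and 56 and 60 counts in KO libraries, or 1.30 and 2.33 against 4.28 and 4.95 CPM. The groups did not overlap. At this depth the log2 fold change of 1.37 (SE 0.50) had an interval of 0.30 to 2.43 and did not pass the test (adjusted p = 0.101). Akt1, a kinase of the insulin and growth factor pathway, gave 33.7 and 32.4 CPM in WT libraries and 57.6 and 47.9 CPM in KO libraries. Its log2 fold change of 0.67 (SE 0.34) had an adjusted p of 0.243, which became 0.0405 when the 4 untreated libraries were fitted alone. Rhoc, which encodes a small GTPase of cell motility, ran the other way, with 60.6 and 99.4 CPM in WT libraries and 48.9 and 51.8 CPM in KO libraries (log2 fold change -0.67, SE 0.27, adjusted p = 0.139). The Rhoc duplicates of WT differed from each other more than the KO libraries differed from WT replicate 1.

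Lats2, the Hippo pathway kinase, gave no stable value. It stood at 13.65 and 6.49 CPM in WT and at 6.42 and 17.5 CPM in KO cells, so the WT values lay within the range of KO. The 2 high libraries, WT replicate 1 and KO replicate 2, share the suffix CC in their titles, whose meaning is not given, and the other 2 carry different suffixes. The Hippo pathway target genes Ccn1 and Amotl2, named after their values were seen, split the same way: Ccn1 stood at 50.55 and 24.7 CPM in the CC libraries and at 11.9 and 1.91 CPM in the others, and Amotl2 at 91.75 and 102.3 CPM against 48.1 and 34.25 CPM. Ankrd1, another Hippo target gene, held 40 and 4 counts in WT replicates 1 and 2. It held 1 and 0 counts in KO replicates 1 and 2, too few to show such a split in KO. Over the 15137 tested genes, the deviations of the CC libraries from their group means correlated with r = 0.06, and the part of the suffix in these values was not tested. The Lats2 log2 fold change of 0.23 had an interval of -0.77 to 1.23, and it turned to -0.19 without WT replicate 2 and to -0.65 without KO replicate 2. A change of either sign within that interval was not detectable here, although the longest annotated 3′ UTR of the gene carries the 8-base word.

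Arid4b, a chromatin protein of SIN3 complexes, and Wee1, the kinase that holds CDK1 inactive before mitosis, both had intervals that spanned 0. Arid4b gave 154 and 134 CPM in WT libraries and 143.5 and 170 CPM in KO libraries (log2 fold change 0.12, interval -0.39 to 0.64). Wee1 stood at 92.9 and 74.15 CPM in WT and at 80.1 and 79.9 CPM in KO cells (-0.06, interval -0.57 to 0.45). Groups overlapped for both genes. Rises above 0.64 for Arid4b and 0.45 for Wee1 lie outside these intervals, and smaller ones do not. Both genes carry AGCACTT.

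**Figure D2:**
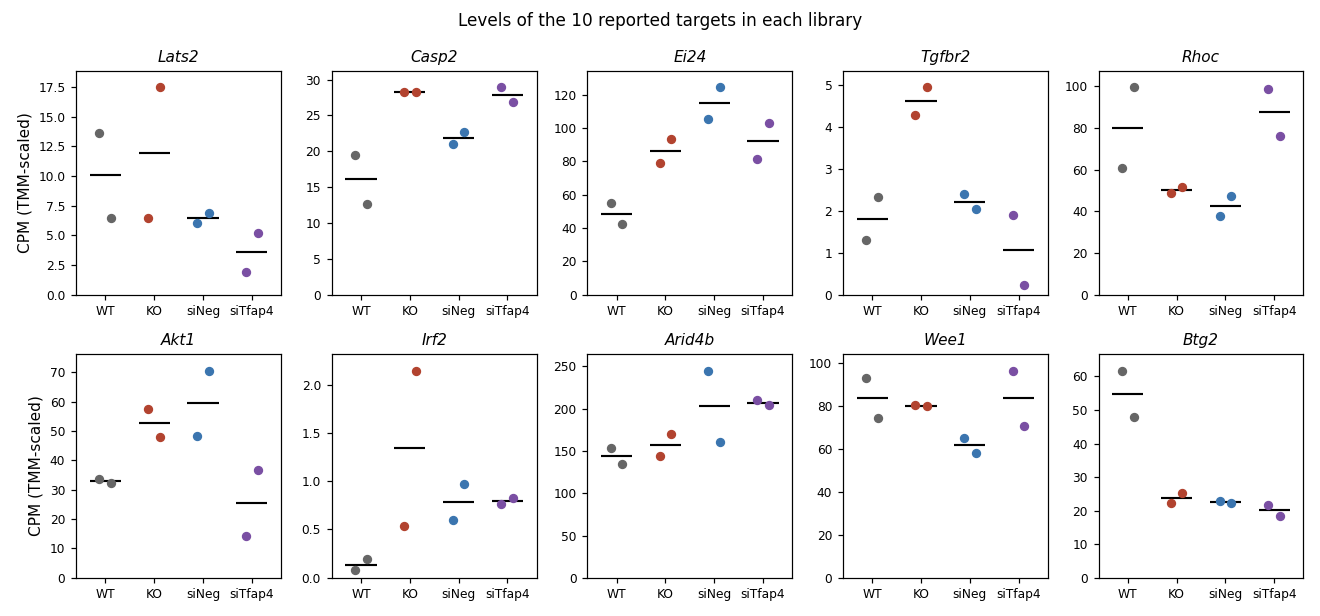
CPM of the 10 genes in each of the 8 libraries (points, 2 per group) with the group mean (bar); every vertical axis starts at 0 and differs between genes. The 6 libraries of KO cells lie between 18.4 and 25.2 CPM for Btg2, below WT at 48.1 and 61.8 CPM, and Akt1 is at 14.4 and 36.8 CPM in siTfap4 against 48.2 and 70.6 CPM in siNeg.

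The Tfap4 siPOOL asks which transcripts depend on Tfap4 in cells that lack the cluster. Rhoc rose and Akt1 fell, so 2 of the 10 genes were called, where 15.4% of all tested genes were called, 4.36% as higher and 11.1% as lower. Rhoc stood at 37.6 and 47.4 CPM in siNeg and at 98.6 and 76.3 CPM in siTfap4, 2.06-fold higher (log2 fold change 1.04, SE 0.27, adjusted p = 0.0185). Akt1 stood at 48.2 and 70.6 CPM in siNeg and at 14.4 and 36.8 CPM in siTfap4, 2.31-fold lower (log2 fold change -1.21, SE 0.35, adjusted p = 0.0273). Groups did not overlap for either gene. Of the 10 genes, 3 did not overlap and were higher and 5 did not overlap and were lower, beside 28.9% and 29.3% of all tested genes (58.3% in all).

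Both calls were lost with a correction for base composition alone. The last 100 bases of Rhoc hold 48.0% GC and those of Akt1 32%, on either side of the median of 38.0%. Relative to the mean over the 8 libraries, log2 levels in the siTfap4 libraries rose with GC in these bases, as given above. Whether this trend comes from the libraries or from the cells was not tested. With a correction for this trend the log2 fold changes became 0.74 for Rhoc (adjusted p = 0.0635) and -0.998 for Akt1 (adjusted p = 0.0633), and none of the 10 genes was called. With correction and replicate block together the adjusted p was 0.0546 for Rhoc and 0.0130 for Akt1. Leaving out siNeg replicate 1 (0.165) or siTfap4 replicate 1 (0.179) also ended the Rhoc call. For Akt1, leaving out siNeg replicate 1 (0.0600), siNeg replicate 2 (0.162) or siTfap4 replicate 1 (0.268, at a log2 fold change of -0.70) did so, and leaving out siTfap4 replicate 2 gave -2.06.

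For Btg2, Ei24 and Irf2, the siPOOL comparison gave values that did not pass the test. Btg2 had a log2 fold change of -0.17 (interval -0.73 to 0.39), and Ei24 of -0.32 (interval -0.83 to 0.20), with 105 and 124 CPM in siNeg and 81.3 and 103 CPM in siTfap4. Irf2 held 7 and 10 counts in siNeg and 6 and 7 in siTfap4 libraries, and its interval of -1.64 to 1.72 is too wide to show a change of either sign. Set side by side, Rhoc had -0.67 in KO against WT and 1.04 in siTfap4 against siNeg, and Akt1 had 0.67 and -1.21. The 2 comparisons share no library. Both values passed the test in the siPOOL comparison and neither did in KO against WT, and the difference between the comparisons was not tested.

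The other genes stayed within wide intervals. Casp2 stood at 21.0 and 22.75 CPM in siNeg and at 28.9 and 26.9 CPM in siTfap4 (log2 fold change 0.35, interval -0.23 to 0.93). Wee1 stood at 65.0 and 58.1 CPM against 96.3 and 70.8 CPM (0.44, interval -0.08 to 0.95). Arid4b stood at 245 and 161 CPM against 211 and 204 CPM (0.03, interval -0.48 to 0.54), with the siNeg duplicates farther apart than the groups. Tgfbr2 held 28 and 21 counts in siNeg and 15 and 2 in siTfap4 libraries (-1.08, interval -2.50 to 0.34), and Lats2 held 70 and 71 against 15 and 44 counts (-0.84, interval -2.08 to 0.41). Both of these rest on few counts, and their duplicates in siTfap4 are far apart. Over the 10 genes the median was -0.07, against 0.01 over all tested genes.

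**Figure D3:**
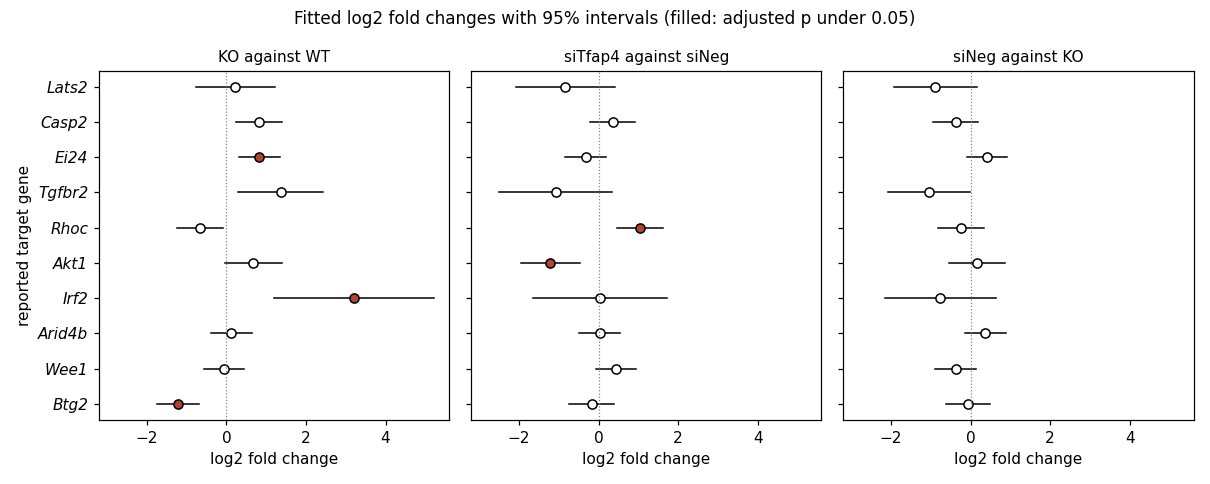
Fitted log2 fold changes (horizontal axis) with 95% intervals (lines) of the 10 genes in 3 comparisons; filled points have an adjusted p under 0.05. Ei24, Btg2 and Irf2 (1 and 2 counts in WT, not counted as a rise) are filled in KO against WT, Rhoc and Akt1 in siTfap4 against siNeg, and none in siNeg against KO.

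TFAP4 binds the E-box CAGCTG, so this word was searched in RefSeq promoters (250 bases before to 50 after the start site, GRCm38.p6), which were listed for 9 of the 10 genes. The word reads the same on both strands. It occurs in the promoters of Rhoc, Ei24 and Tgfbr2, and in 16.3% of all 32851 promoters in the table. The 3 windows are shown with the E-box in capitals, in the sense of the gene:
Rhoc, chr3:104789051-104789074, plus strand: ctggccgcgCAGCTGgaggcggtg
Ei24, chr9:36797349-36797372, minus strand: ccgacttccCAGCTGccccgtgcg
Tgfbr2, chr9:116175333-116175356, minus strand: ggtcctgccCAGCTGttggcgagg
Of these genes Rhoc alone was called after the Tfap4 siPOOL, and neither of the 2 listed promoters of Akt1 holds the word. A match is not a binding site, and its absence from this window says nothing about the factor.

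Untreated KO cells and KO cells with the control siPOOL belong to different sets, so transfection and set cannot be told apart. None of the 10 genes passed the test between them, where 0.00661% of all tested genes did, and at an unadjusted p under 0.05, which 11.5% of all tested genes met, there was 1 of the 10, Tgfbr2 (log2 fold change -1.05, SE 0.49, adjusted p = 0.426). DESeq2 and limma-voom called 0 of the 10 as well, with no DESeq2 result for Irf2. Groups did not overlap for 5 of the 10 genes, beside 44.9% of all tested genes. This comparison shares KO with the first and siNeg with the second. In the order of the 4 group means, Btg2 was highest in WT, and both WT libraries lay above both of the next group, KO. Ei24 and Irf2 were lowest in WT, apart from KO for Ei24 and from siNeg for Irf2. Tgfbr2 was highest in KO, apart from siNeg. The other neighbours of Irf2, Tgfbr2 and Lats2 overlapped, except siNeg and siTfap4 for Lats2. Casp2 was also lowest in WT (12.7 and 19.4 CPM, apart from 21.0 and 22.75 CPM in siNeg). For Arid4b all neighbouring groups overlapped, and the highest group mean was 1.44 times the lowest.

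**Figure D4:**
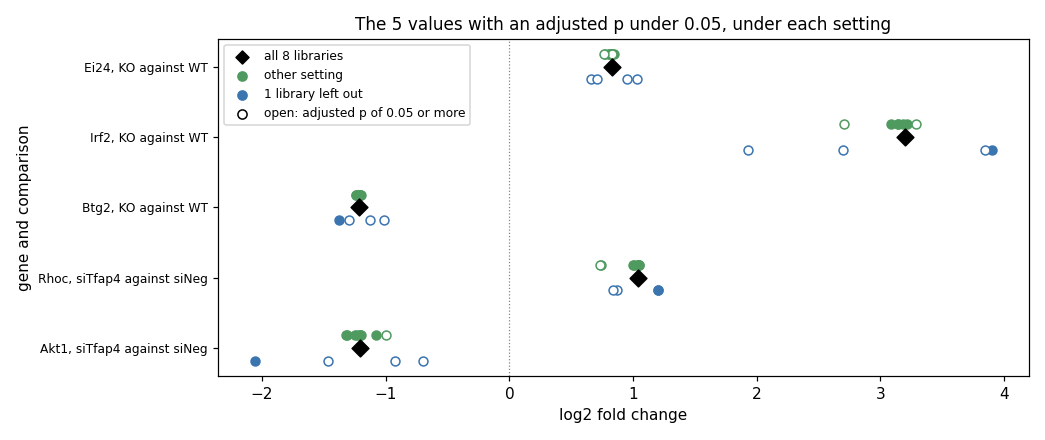
Log2 fold changes (horizontal axis) of the 5 values with an adjusted p under 0.05, Irf2 included, with all 8 libraries (diamonds), under other settings (green) and with 1 library left out (blue); open points have an adjusted p of 0.05 or more. All points of a row lie on the same side of 0, and Ei24 has no filled blue point.

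Genes with levels most like Btg2, Ei24, Irf2, Rhoc and Akt1 were sought by Pearson's r of log2 CPM over the 8 libraries among tested genes with a mean of at least 10 CPM. These points share group differences and, for some genes, the base composition trend, and r is given as a description. Closest to Btg2 were Cpsf1 (r = 0.974), Yme1l1 (0.971) and Bmp4 (0.970). Among the closest to Ei24 were Itgb1 (0.988) and Ebp (0.980), and closest to Irf2 were Id2 (0.952), Parva (0.934) and Sh3pxd2b (0.925). Irf2 itself held only 1 to 26 counts per library and passed the filter through groups where it is high. Its r values rest on levels near the floor and say little about likeness. Rhoc was most like Mrps12 (0.987), Mad2l2 (0.979) and Fbxo2 (0.971), and Akt1 most like Dync1li1 (0.990), Mif4gd (0.990) and Arpc5 (0.989).

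Another list held 20 further genes reported as targets of seed-sharing microRNAs, all tested. It was chosen with earlier results of these data known. Its shares beside those of all tested genes are therefore a description, and whether reported targets rise more often was not tested. In KO against WT cells 6 of the 20 rose and 1 fell, beside 5.99% and 3.96% of all tested genes, with a median log2 fold change of 0.46. The largest rises were those of the Nodal antagonist genes Lefty1 (5.19, SE 0.59) and Lefty2 (3.43, SE 0.34) and the cyclin gene Ccnd2 (4.73, SE 0.30), and these 3 calls were kept under every alternative run. The gene that fell was Trp53inp1, a p53 target gene (-1.20, SE 0.28), whose call ended when WT replicate 1, KO replicate 1 or KO replicate 2 was left out (adjusted p up to 0.201). The others that rose were Tfap4 (1.33, SE 0.26), Mbd2 (0.90, SE 0.26) and the chromatin reader gene Zmynd11 (0.83, SE 0.23), named after their values were seen. Tfap4 had an adjusted p of 0.0533 with KO replicate 1 left out, and Mbd2 and Zmynd11 lost their calls with any 1 library left out (up to 0.285 and 0.233) and with the replicate block (0.0641 and 0.05085). With the correction for base composition and the block together, the adjusted p of Mbd2 was 0.0515. After the Tfap4 siPOOL 1 of the 20 rose and 3 fell, beside 4.36% and 11.1% of all tested genes (15.4% in all). 1 of these 3 is Tfap4 itself, the gene the siPOOL is directed against. Its fall was set by the design and is not a result about the list. Cdkn1a, the CDK inhibitor, rose (1.02, SE 0.23; adjusted p = 0.0580 with the correction for base composition), and Mbd2 (-1.97, SE 0.30), Ccnd1 (-1.28, SE 0.30) and Tfap4 fell. Mbd2, which encodes a methyl-CpG binding protein, kept its call under every alternative run, Ccnd1 lost it without siNeg replicate 1 or siTfap4 replicate 1 (up to 0.126), and Tfap4 without siTfap4 replicate 1 (0.0575).

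Partners of the 10 genes were grouped in 9 lists by pathway, which were also chosen with earlier results of these data known. Their shares are a description as well. In KO against WT 9 of 136 rose and 3 fell, 8.82% beside the 9.95% of all tested genes. The partners of Irf2 held the most, with 3 risers and 1 faller of 13 tested. Irf1, an activator that binds the same promoter elements as Irf2, averaged 95.1 CPM in KO against 26.2 CPM in WT libraries (log2 fold change 1.86, SE 0.26, adjusted p = 0.000297), and Irf2bp2, a corepressor that binds IRF2, at 102 and 27.5 CPM (1.89, SE 0.28). Both kept their calls under every alternative run. Irf9, a subunit of the interferon-induced factor ISGF3, rose (1.09, SE 0.27), but leaving out each library in turn ended that call (adjusted p at most 0.133). Irf8 fell (-2.07, SE 0.46), and leaving out WT replicate 2, KO replicate 1 or KO replicate 2 ended its call (at most 0.0984).

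Elsewhere the partner lists held 0 to 2 calls in KO cells. Of 19 Hippo genes, the upstream regulator Nf2 (1.10, SE 0.22) and the coactivator Wwtr1 (1.16, SE 0.24) rose. Nf2 lost its call without WT replicate 1 or KO replicate 2 (adjusted p up to 0.0540), and Wwtr1 without WT replicate 1 (0.0774). Of 19 cell death genes, Pmaip1, which encodes the BH3-only protein NOXA, fell from 27.2 to 7.22 CPM (-1.91, SE 0.33, kept under every alternative run). Of 14 TGF-beta genes, the SMAD repressor gene Skil rose (1.16, SE 0.25) and the ligand gene Tgfb1 fell (-1.54, SE 0.42). Skil lost its call without WT replicate 2 or KO replicate 1 (up to 0.131) and Tgfb1 without WT replicate 2 or either KO library (up to 0.232).

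For the remaining partners, Phlpp1, an AKT phosphatase gene, was the sole one of 17 AKT partners to rise (1.22, SE 0.34; adjusted p up to 0.230 when WT replicate 1 or either KO library was left out, and 0.0521 with the replicate block). The deadenylase gene Cnot6 was the sole one of 13 CCR4-NOT partners to rise (0.82, SE 0.25; up to 0.330 with WT replicate 2 or either KO library left out, 0.0511 with RLE scaling and 0.0590 with the replicate block). None of 14 SIN3 or 13 G2/M partners was called in KO against WT. Their most abundant members were the histone chaperone gene Rbbp4 at -0.14 (SE 0.22) and the mitotic cyclin gene Ccnb1 at 0.17 (SE 0.25).

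After the Tfap4 siPOOL 7 of the 136 partners rose and 19 fell, 19.1% beside 15.4% of all tested genes, and with the correction for base composition 17 were called. Around Wee1, 4 of 13 G2/M genes fell. Cdk1, the kinase that Wee1 inhibits, stood at 30.6 CPM in siTfap4 and 197.7 CPM in siNeg (-2.69, SE 0.44), and its relative Cdk2 at 20.3 and 67.5 CPM (-1.73, SE 0.29). The cyclin genes Ccna2 (-0.96, SE 0.28) and Ccnb2 (-0.80, SE 0.25) lost their calls with that correction and without siNeg replicate 1, siNeg replicate 2 or siTfap4 replicate 1 (adjusted p up to 0.269 and 0.295). Of 19 cell death genes, Bid, which encodes a BH3-only protein, fell from 41.5 to 7.93 CPM (-2.38, SE 0.31). The apoptosome gene Apaf1 fell (-1.85, SE 0.41; up to 0.132 without siNeg replicate 1 or siTfap4 replicate 1). Bak1 (1.03, SE 0.28) and Bcl2l1 (0.89, SE 0.29), which encode a pore-forming and an antiapoptotic protein, rose, and both lost their calls with the correction and without siNeg replicate 1, siNeg replicate 2 or siTfap4 replicate 1 (up to 0.225 and 0.426). For Bcl2l1 the adjusted p was 0.0909 with the replicate block, 0.0538 with no filter on low counts and 0.0773 in the fit to the 4 libraries compared. That fit gave 0.0771 for Ccnb2.

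Among the TGF-beta partners of Tgfbr2, the corepressor genes Tgif1 and Tgif2 fell. Tgif1 stood at 30.5 CPM in siTfap4 and 165.7 CPM in siNeg (-2.44, SE 0.40), and Tgif2 was at -1.12 (SE 0.35). Tgif2 lost its call with the correction (adjusted p = 0.204) and in the fit to the 4 libraries compared (0.0605). Leaving out siNeg replicate 1, siNeg replicate 2 or siTfap4 replicate 1 also ended it, the last at a log2 fold change of -0.58. Of 13 CCR4-NOT partners of Btg2, the deadenylase genes Cnot8 (-1.59, SE 0.25) and Cnot7 (-1.49, SE 0.37) and the Btg2 relative Tob2 (-1.05, SE 0.31) fell, and Prmt1 (0.97, SE 0.23) and Cnot3 (0.94, SE 0.25) rose. Cnot7 lost its call without siNeg replicate 1 or siTfap4 replicate 1 (up to 0.126), and Tob2, Cnot3 and Prmt1 with the correction for base composition and without siTfap4 replicate 1, the first 2 also without siNeg replicate 1 and Cnot3 without siNeg replicate 2 (up to 0.255, 0.266 and 0.0895). The replicate block gave 0.0554 for Tob2. Cdk1, Cdk2, Bid, Tgif1 and Cnot8 kept their calls under every alternative run.

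Of the Hippo partners, the coactivator Yap1 (-1.29, SE 0.30) and the scaffold gene Sav1 (-2.11, SE 0.40) fell and the TEAD cofactor gene Vgll4 rose (1.26, SE 0.28). All 3 calls were lost without siTfap4 replicate 1 (adjusted p up to 0.0970, 0.0628 and 0.121), and that of Vgll4 also without siNeg replicate 1. Of the SIN3 partners Rbbp7 (-1.32, SE 0.28), Sap18 (-1.06, SE 0.27) and Rb1 (-1.15, SE 0.34) fell, and of the IRF partners Irf2bp2 (-1.07, SE 0.28) and Nfkb1 (-1.40, SE 0.36). These 5 lost their calls without siTfap4 replicate 1, all but Rbbp7 without siNeg replicate 1, and Rb1 without siNeg replicate 2 (up to 0.0703, 0.111, 0.3195, 0.203 and 0.161 in that order). Sap18, Rb1 and Irf2bp2 also lost them with the correction for base composition (0.0811, 0.153 and 0.05004). Of 17 AKT partners of Akt1, 1 rose, the kinase gene Gsk3a (0.74, SE 0.24). Gsk3a lost its call with the correction for base composition (adjusted p = 0.164) and with the replicate block (0.0678). It also lost it with no filter on low counts (0.0981) and in the fit to the 4 libraries compared (0.127). Leaving out siNeg replicate 1, siNeg replicate 2 or siTfap4 replicate 1 ended it too, at log2 fold changes of 0.62 to 0.85.

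**Figure D5:**
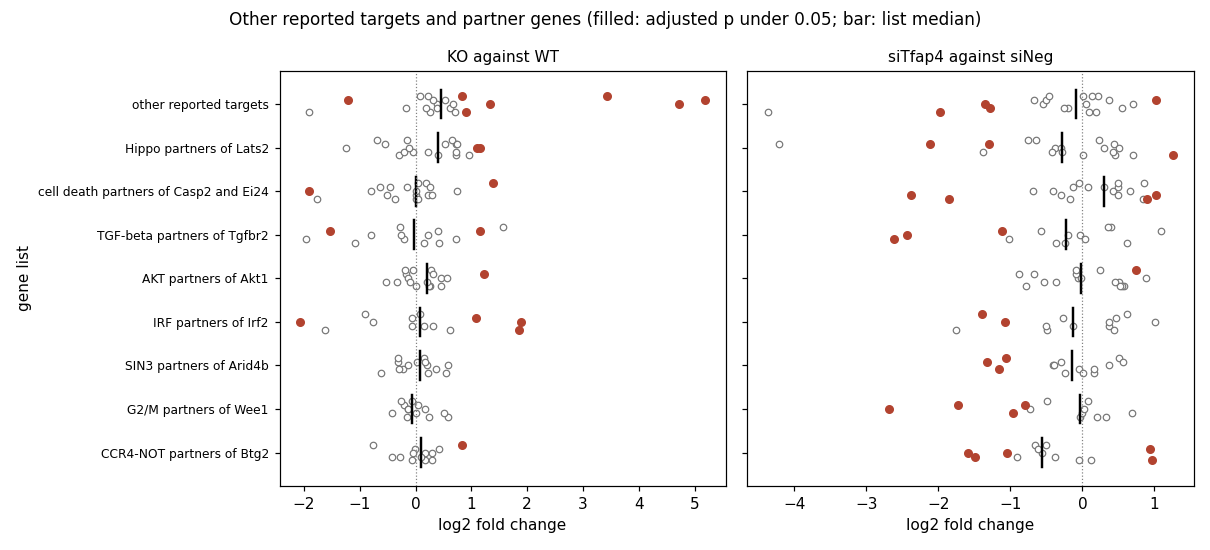
Log2 fold changes (horizontal axis) of 20 other reported targets and of partner genes in 8 of the lists, in KO against WT (left) and siTfap4 against siNeg (right); each point is a gene, filled where the adjusted p is under 0.05, and bars mark list medians. The median of the other reported targets is 0.46 on the left and -0.09 on the right.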

How the data were processed

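RNA of 8 libraries was sequenced from its 3′ end with the QuantSeq FWD kit, per the labels' protocols. The deposited values are whole-number counts per gene, which the authors made from reads trimmed with Trim Galore on GRCm38, per the submitters' processing notes. For aligner, counting tool, strand setting and annotation version the sources used here give nothing. Symbols matched 55154 of 55421 identifiers, and GENCODE M21 (GRCm38) gave positions and 3′ UTRs.

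Genes were filtered with filterByExpr (15137 left), scaled with TMM factors and fitted with 4 group means in edgeR 4.0.16 (robust quasi-likelihood test, 4 residual degrees of freedom, R 4.3.3), with Benjamini-Hochberg adjustment. Intervals are 95%, and p-values measure the spread between duplicates pooled over the 4 groups. CPM and log2 CPM (prior count 2) were computed from the deposited counts. The script was tested on simulated data.

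The 10 genes and all lists were chosen with earlier results of these data known. Named were the 10 genes, the called genes of each list (those beyond 3 per list after their values were seen) or its most abundant gene, and the 3 most similar genes. Alternatives were RLE scaling, DESeq2 1.42.0, limma-voom (limma 3.58.1), 2 other filters, a fit to only the 4 libraries compared, a threshold of 0.1, a replicate block, a lowess correction (span 0.3) for GC in the last 100 bases, alone and with the block, and each library left out. A lone library left in a group is assumed to vary like the others. The last 200 bases of the 10 genes share no 31-base word with other genes. Lats2 shares exon sequence with Gm49361 on the same strand, and Ei24 and Arid4b with Gm26787 and Ggps1 on the other strand, which matters only if strand was ignored. None of these overlaps lies in a 3′ UTR. Some genes and 1 partner list are not reported here by name, but stay in the totals.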

Additional observations from a re-analysis of the deposited data

How the results depend on the processing

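Counts here include Irf2. No call among the 10 genes changed sign, and of 413 values of single genes under an alternative 373 kept direction and side of the threshold, 22 lost a call, 2 gained one and 16 changed sign without a call. Leaving out 1 library gave 0 to 1 of the 10 genes called in KO against WT, 0 to 2 in siTfap4 against siNeg and 0 to 0 in siNeg against KO. Over all genes it gave 629 to 880, 522 to 2961 and 1 to 76 calls. For the other reported targets it gave 3 to 5 (KO against WT) and 2 to 4 (siTfap4 against siNeg), and for partner genes 5 to 9 and 5 to 35. With the correction for base composition 0 of the 10 genes were called in siTfap4 against siNeg, and 1 with the replicate block as well, and 17 partner genes with the correction alone. A threshold of 0.1 gave 3528 genes in siTfap4 against siNeg and 23 partner genes in KO against WT, where the 4 libraries alone gave 19. The siNeg against KO count of 1 gene became 11 with RLE scaling, 138 in DESeq2, 120 with no filter, 2 on its 4 libraries, 99 at a threshold of 0.1, 8 with the correction and 3 with correction and block; the cause was not tested.

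Same-numbered libraries deviated together with r = -0.06 in the untreated and 0.13 in the siPOOL set over 15137 genes, so the numbers were not taken as pairs. The replicate block gave 1337 genes and 2 of the 10 in KO against WT, 2064 and 2 in siTfap4 against siNeg, and 0 and 0 in siNeg against KO.

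Uncalled values that changed sign are given as the range with 1 library left out. In KO against WT they were Wee1 (-0.21 to 0.12, positive without WT replicate 1) and Lats2 (-0.65 to 0.88, negative without WT replicate 2, at -0.19, or KO replicate 2). In siTfap4 against siNeg they were Arid4b (-0.26 to 0.35, negative without siNeg replicate 2 or siTfap4 replicate 1, and -0.0086 with no filter) and Irf2 (-0.29 to 0.39, negative without siNeg replicate 1 or siTfap4 replicate 2). In siNeg against KO they were Akt1 (-0.13 to 0.42, negative without siNeg replicate 2, -0.38 with the block and -0.33 with correction and block), Irf2 (-1.45 to 0.52, 0.23 with the block and 0.23 with both), Lats2 (-1.44 to 0.0001) and Btg2 (-0.15 to 0.028), the last 3 positive without KO replicate 2. Depth limits Irf2, Tgfbr2 and Lats2, with 26, 60 and 212 counts in their fullest library. Irf2 dropped out with the filter of 1 CPM, and in KO against WT and siTfap4 against siNeg also in the fit to 4 libraries, so these gave no value. DESeq2 gave no result for Irf2 in siTfap4 against siNeg and in siNeg against KO.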
